A study of Mus musculus with 8 samples.

Results

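The muscle RING-finger genes *Trim54*, *Trim55* and *Trim63* encode the ubiquitin ligases MuRF3, MuRF2 and MuRF1. They were taken by symbol, and are 3 of the 40690 genes in the count table. They were chosen by their fold change and counts in NAE1CKO against CTL hearts, so that this difference is described below and carries no test for them. The study asks what loss of neddylation does to the developing heart, by deleting *Nae1*, which encodes a subunit of the NEDD8-activating enzyme. Polyadenylated RNA of ventricles was sequenced at postnatal day 1 from 4 NAE1CKO mice, which carry floxed *Nae1* and αMHC-Cre, and from 4 littermate CTL mice, labelled wild type, with exact alleles not given in the sources used here. Both groups are on a C57BL/6J background, and the Cre acts in cardiomyocytes, so that other cells of the ventricle keep *Nae1*. The samples are labelled ventricle, while the cell line tag reads cardiomyocyte and the cell type tag neonatal, and the study calls them biological replicates, with 1 library each. Libraries are called by their titles, KO for NAE1CKO and WT for CTL, and the first number in a title takes 1 of 2 values, as in KO-443-3 and KO-453-6, with 2 libraries of each genotype at each value. What that title number marks is not given.

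The MuRF proteins belong to the tripartite motif (TRIM) family, in which a RING finger is followed by a B-box and a coiled coil, and they are found mainly in striated muscle. MuRF1 and MuRF2 sit at the sarcomere, where they bind titin near the M-band, and MuRF1 is best known as the ligase that marks thick filament proteins for the proteasome in wasting muscle. MuRF3 was found as a protein that binds and stabilises microtubules in muscle cells, and together with MuRF1 it takes part in turnover of myosin heavy chain.

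The relation of the 3 genes is seen in their coding sequences (GENCODE M21). *Trim54* and *Trim63* were identical at 67.8% of 1056 aligned coding bases, *Trim55* and *Trim63* at 65.7% of 1053, and *Trim54* and *Trim55* at 64.3% of 1092. The 60 bases below were the stretch with most identity, 51 of 60, and are shown because reads from here are the most likely to be shared. Capitals mark bases identical in all 3 genes. Of the 9 positions that differ, 8 are at the third position of a codon. The stretch covers coding bases 271 to 330 of *Trim54* and *Trim55* and 262 to 321 of *Trim63*.
Trim54: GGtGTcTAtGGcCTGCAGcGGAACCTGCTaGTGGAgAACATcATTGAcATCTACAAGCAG
Trim55: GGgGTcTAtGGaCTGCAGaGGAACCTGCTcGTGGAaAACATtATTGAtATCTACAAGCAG
Trim63: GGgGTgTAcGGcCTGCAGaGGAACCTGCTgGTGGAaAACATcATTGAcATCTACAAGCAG
Over whole transcripts, no run of 50 bases was shared between any pair of the 3 genes. The longest common run was 28 bases for *Trim54* and *Trim63*, 17 for *Trim55* and *Trim63* and 16 for *Trim54* and *Trim55*, so that a read of 50 bases could be told apart between them.

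On GRCm38, all 3 genes lie on the plus strand. *Trim54* (ENSMUSG00000062077) is at chr5:31116712-31137630 with up to 9 exons, *Trim55* (ENSMUSG00000060913) at chr3:19644474-19692421 with up to 10, and *Trim63* (ENSMUSG00000028834) at chr4:134315120-134329629 with up to 9. The promoters of the gene that differed most and of the gene that was lower in NAE1CKO ventricles are shown, from 250 bases before to 50 bases after the RefSeq start (RefSeq, GRCm38.p6), because the 3 genes did not move together. They are chr5:31116362-31116661 for *Trim54* and chr4:134314870-134315169 for *Trim63*, both on the plus strand. The RefSeq start of *Trim54* lies upstream of its GENCODE start, and that of *Trim63* at it. Capitals mark the FOXO binding element TGTTTAC, the M-CAT element GGAATG, bound by TEAD factors, and the AP-1 element TGANTCA, searched on both strands.
Trim54: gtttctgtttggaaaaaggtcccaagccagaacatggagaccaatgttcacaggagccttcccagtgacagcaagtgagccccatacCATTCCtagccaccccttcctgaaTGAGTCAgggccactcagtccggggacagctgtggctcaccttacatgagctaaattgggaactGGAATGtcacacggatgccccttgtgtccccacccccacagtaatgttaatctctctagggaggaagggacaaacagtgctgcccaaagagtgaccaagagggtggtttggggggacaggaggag
Trim63: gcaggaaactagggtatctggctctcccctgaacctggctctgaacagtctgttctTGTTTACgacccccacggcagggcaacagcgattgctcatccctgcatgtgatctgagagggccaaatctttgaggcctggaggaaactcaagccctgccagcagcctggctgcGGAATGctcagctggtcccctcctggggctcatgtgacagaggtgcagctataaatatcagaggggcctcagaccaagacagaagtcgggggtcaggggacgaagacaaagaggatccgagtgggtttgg
The *Trim54* window held M-CAT at 75 bases before the start and, as CATTCC on the other strand, at 163, and AP-1 at 139. The *Trim63* window held the FOXO element at 194 bases before the start and M-CAT at 80. Of 32851 mouse promoter windows of the same length, 3.65% held the FOXO element, 14.66% M-CAT and 7.81% AP-1. E-boxes, CANNTG, at 179 and 113 bases before the start of *Trim54* and at 149, 72 and 50 before that of *Trim63*, overlapped none of these and occur in 72.31% of windows. The antioxidant response core TGACNNNGC (12.39% of windows), the hypoxia element ACGTG (19.62%), the CArG box (1.63%) and the MEF2 site (3.19%) had no match in either window. The motifs were picked after values of the genes were known, and a match is a string of letters, not a bound site. *Trim55* has no printed promoter.

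Library totals were 16304420 to 18593509 counts in NAE1CKO and 13932821 to 18056322 in CTL. Values below are CPM, that is, counts relative to library size after TMM scaling. *Nae1* was at 10.6 to 13.2 CPM in NAE1CKO and 22.3 to 24.1 CPM in CTL; the groups did not overlap. The CTL library WT-453-5 stands apart in that the noncoding gene *Gm42418* took 12.8% of its counts, against 3.09% to 4.62% in the other 7. Of 13622 genes tested with edgeR, 2537 were higher in NAE1CKO (18.6%) and 2401 lower (17.6%) at an adjusted p under 0.05, a split of 3177 higher and 1532 lower when libraries were scaled by their size alone. The 7 lists of cell type markers moved unequally. Ventricular cardiomyocyte markers summed to 61986 to 67797 CPM in NAE1CKO and 78771 to 95747 in CTL, with 7 of 10 lower and 0 higher. Atrial markers summed to 1889 to 3154 CPM in NAE1CKO against 874 to 1099 CPM in CTL (2 of 8 higher, 1 lower), smooth muscle markers to 6527 to 7526 CPM in NAE1CKO against 3173 to 3470 CPM in CTL (4 of 7 higher, 2 lower), and macrophage markers to 159 to 213 CPM in NAE1CKO against 105 to 116 CPM in CTL (10 of 10 higher). Fibroblast markers (0 of 8 higher, 4 lower) summed to 2448 to 2895 in NAE1CKO and 2621 to 3191 in CTL, and endothelial markers (3 of 7 higher, 1 lower) to 1168 to 1252 CPM in NAE1CKO against 1137 to 1208 CPM in CTL. Such sums follow their most abundant genes. In the atrial list *Nppa* averaged 1355 CPM in NAE1CKO and 372 CPM in CTL, and *Myl4* 859 CPM in NAE1CKO and 258 CPM in CTL. The median log2 fold change of that list was -0.14. In the smooth muscle list *Acta2* averaged 4901 CPM in NAE1CKO and 1725 CPM in CTL. *Myh11* (25.6 and 31.7 CPM) and *Smtn* (88.1 and 106 CPM) had lower means in NAE1CKO. In bulk tissue, fewer cells of a type and less RNA per cell cannot be told apart.

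The 3 ligase genes took 3 different courses. The mean of *Trim54* in NAE1CKO ventricles was 10.3 times that in CTL ventricles, the mean of *Trim63* was 0.740 times, and the mean of *Trim55* was 1.07 times, with groups that overlapped.

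*Trim54*, encoding MuRF3, was low in CTL ventricles and moderate in NAE1CKO ventricles. Its counts were 995, 1054, 1162 and 1333 in NAE1CKO (KO-443-3, KO-443-5, KO-453-6, then KO-453-7), against 89, 120, 102 and 72 in CTL (WT-443-7, WT-443-8, WT-453-3, then WT-453-5). After scaling this was 53.6, 55.3, 69.9 and 73.5 CPM in NAE1CKO and 5.60, 7.38, 5.78 and 5.78 CPM in CTL. The groups were far from overlapping, since the lowest NAE1CKO library was 7.26 times the highest CTL library. The mean was 63.1 ± 10.1 CPM in NAE1CKO and 6.13 ± 0.832 CPM in CTL (SD, n = 4 each), a ratio of 10.3 and a fitted log2 fold change of 3.36 (SE 0.133), the 24th highest of the 13622 genes. These are the values the gene was chosen with. Over all genes tested, 18.6% had all NAE1CKO libraries above all CTL libraries.

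*Trim63*, encoding MuRF1, went the other way. Its counts were 4036, 4732, 3350 and 3461 in NAE1CKO against 4485, 4920, 5382 and 3370 in CTL, in the same order of libraries. In CPM these are 217, 248, 201 and 191 in NAE1CKO and 282, 302, 305 and 271 in CTL. The raw counts overlap, but after scaling every NAE1CKO library was below every CTL library. The mean was 215 ± 25.1 CPM in NAE1CKO and 290.0 ± 16.4 CPM in CTL (SD, n = 4 each), a ratio of 0.740 and a log2 fold change of -0.44 (SE 0.0788). Over all genes tested, 17.9% had all NAE1CKO libraries below all CTL libraries.

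*Trim55*, encoding MuRF2, did not separate the groups. Its counts were 4122, 4406, 3605 and 4253 in NAE1CKO and 3313, 3856, 3468 and 2557 in CTL. In CPM these are 222, 231, 217 and 234 in NAE1CKO and 209, 237, 196 and 205 in CTL. The highest single value belonged to WT-443-8 and the NAE1CKO range lay within the CTL range. The means, 226 ± 8.17 CPM in NAE1CKO and 212 ± 17.6 CPM in CTL, were 6.76% apart, with a log2 fold change of 0.09 (SE 0.0632).

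**Figure D1:**
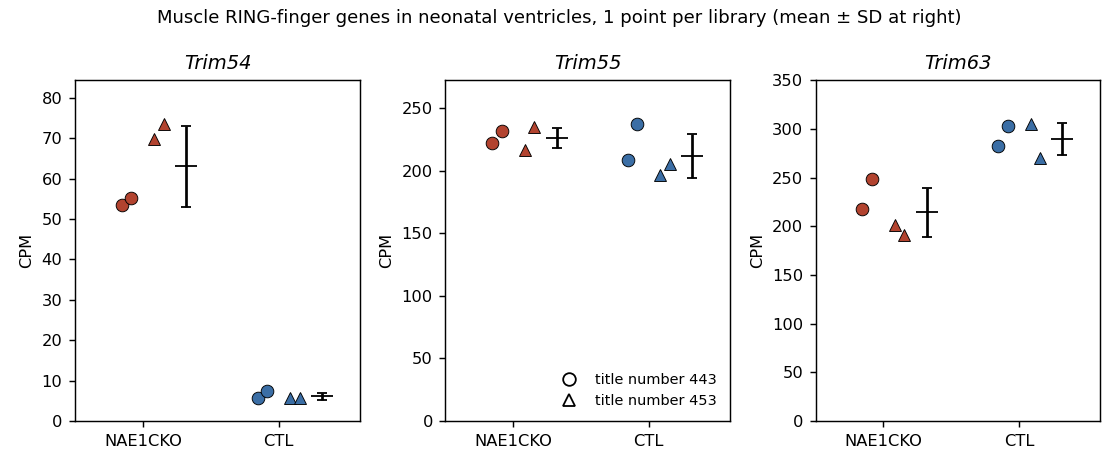
CPM of the 3 genes in each library, NAE1CKO in red and CTL in blue, circles for KO-443 and WT-443 titles and triangles for KO-453 and WT-453 titles, with mean and SD beside the points (n = 4 each) and each axis starting at 0. *Trim54* separated the groups by the widest margin, *Trim63* separated them in the opposite direction, and the points of *Trim55* overlapped.

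Levels of different genes can be compared only per length. Per kilobase of annotated exon (1436 bases for *Trim54*, 2659 for *Trim55* and 2842 for *Trim63*), *Trim54* was at 43.9 ± 7.02 CPM in NAE1CKO and 4.27 ± 0.579 CPM in CTL. *Trim55* was at 85.0 ± 3.07 CPM per kilobase in NAE1CKO and 79.7 ± 6.61 in CTL, and *Trim63* at 75.5 ± 8.83 in NAE1CKO and 102 ± 5.77 in CTL (SD, n = 4 each). *Trim54* was thus the lowest of the 3 in all 8 libraries, nearer to the others in NAE1CKO than in CTL. Its share of their summed level was 21.5 ± 3.48% in NAE1CKO and 2.29 ± 0.189% in CTL. The share of *Trim63* was 36.9 ± 3.77% in NAE1CKO and 54.9 ± 2.13% in CTL, and that of *Trim55* was 41.6 ± 1.06% in NAE1CKO and 42.8 ± 2.01% in CTL.

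The ratio of *Trim63* to *Trim55* was 0.888 ± 0.101 in NAE1CKO and 1.29 ± 0.114 in CTL, with the highest NAE1CKO library at 1.005 and the lowest CTL library at 1.19. In CTL all 4 libraries had *Trim63* above *Trim55*. In NAE1CKO *Trim55* was above *Trim63* in 3 of 4, while KO-443-5 had 87.4 for *Trim63* and 87.0 for *Trim55*. The order of *Trim55* and *Trim63* in NAE1CKO depends on the length used. With coding length or the longest transcript *Trim63* was above *Trim55* in all 8 libraries, and the ratio in NAE1CKO was 1.46 and 1.31. The summed level was 204 ± 6.81 CPM per kilobase of exon in NAE1CKO and 186 ± 10.4 in CTL, but 397 ± 18.7 in NAE1CKO and 407 ± 21.7 in CTL per kilobase of coding sequence, so its direction also depends on the length.

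**Figure D2:**
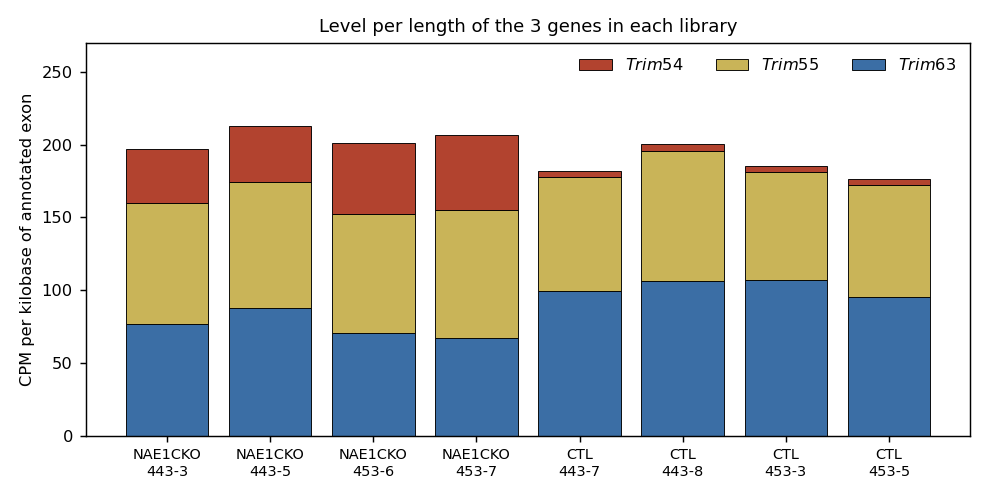
Level per kilobase of annotated exon of *Trim54*, *Trim55* and *Trim63*, stacked, in each library. The *Trim54* layer was 37.3 to 51.2 CPM per kilobase in NAE1CKO and 3.90 to 5.14 in CTL, and the *Trim63* layer 67.1 to 87.4 in NAE1CKO against 95.2 to 107 in CTL.

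The title number was not used to choose the genes, and its effect was tested in edgeR with genotype in the model, adjusted over 13622 genes. *Trim54* was at 69.9 and 73.5 CPM in the KO-453 libraries and at 53.6 and 55.3 CPM in the KO-443 libraries. The KO-453 libraries were thus both above the KO-443 libraries, while the WT-453 libraries, at 5.78 and 5.78 CPM, lay within the WT-443 libraries, at 5.60 and 7.38 CPM. The log2 difference of *Trim54* over both genotypes, KO-453 and WT-453 over KO-443 and WT-443, was 0.22 (SE 0.109, adjusted p = 0.321, edgeR). The interaction asks whether the genotype difference itself differs between the title numbers. It was 0.57 on the log2 scale (SE 0.169, adjusted p = 0.347, edgeR) and did not pass. With 2 libraries of each genotype at each title number, this test can miss an interaction of that size. Without KO-453-6, which left KO-453-7 as the only KO-453 library, the interaction was 0.60. The test of that fit is not read, since KO-453-7 alone gives no spread for its cell. The interaction ranged from 0.35 to 0.75 over the alternatives.

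*Trim63* averaged 196 CPM in the KO-453 libraries and 233 CPM in the KO-443 libraries, and 288 CPM in the WT-453 libraries and 292 CPM in the WT-443 libraries (n = 2 each). Its log2 difference over both genotypes was -0.14 (SE 0.0673, adjusted p = 0.329, edgeR) and its interaction -0.22 (SE 0.119, adjusted p = 0.586). For *Trim55* the difference was -0.08 (SE 0.0578, adjusted p = 0.527, edgeR) and the interaction 0.14 (SE 0.109, adjusted p = 0.710). Leaving out 1 library moved the difference to 0.15 without KO-443-3 for *Trim54*, to -0.07 without KO-443-5 for *Trim63* and to -0.03 without WT-443-8 or -0.05 without WT-453-3 for *Trim55*. Of the 3 genes, 0 were called for the title number, against 144 of all genes tested (1.06%, with 0.617% higher and 0.440% lower). The interaction called 0 genes in edgeR (0%), with 1307 at an unadjusted p under 0.05, 41 calls in DESeq2 and 0 in limma-voom.

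The surroundings of *Trim54* bear on how its counts are read. Its exons overlap, by 382 bases, those of the annotated gene *Gm15469* on the opposite strand, which holds 18.4% of the 50-base runs of *Trim54* (264 of 1432). *Gm15469* was not analysed here. Since the strand setting of the counts is not given, reads from *Trim54* and from the antisense gene cannot be told apart in this stretch. *Ucn*, which encodes the peptide urocortin and lies 433 bases beyond the end of *Trim54*, had 10, 7, 6 and 21 counts in NAE1CKO and 1, 2, 3 and 2 in CTL, too few to be tested. The gene on its other side, *Dnajc5g*, had 0 counts in all 8 libraries.

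*Trim55* and *Trim63* shared no run of 50 bases with another annotated gene. *BC002189* lies in an intron of *Trim55* without touching its exons and was not analysed here. Beside *Trim55*, *1700064H15Rik* had 7 counts over the NAE1CKO libraries and 6 over the CTL libraries, and *Crh*, which encodes corticotropin-releasing hormone, 39 over the NAE1CKO libraries and 20 over the CTL libraries. Beside *Trim63*, *Pdik1l* had a log2 fold change of 0.03 (adjusted p = 0.891, edgeR) and *Slc30a2*, a zinc transporter gene, -0.47 (adjusted p = 0.258, edgeR).

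MuRF genes are also active in skeletal muscle. The 20 skeletal muscle markers summed to 25.7 to 27.7 CPM in NAE1CKO and 15.7 to 17.8 CPM in CTL. Beside 18.6% higher and 17.6% lower of all genes tested, 3 of the 8 markers that could be tested were higher and 1 lower. The higher ones were the developmental myosin genes *Myh3*, at 2.15 CPM in NAE1CKO and 0.219 CPM in CTL, and *Myh8*, at 7.20 CPM in NAE1CKO and 1.38 CPM in CTL, and the myosin-binding protein gene *Mybpc2*, at 9.21 CPM in NAE1CKO and 6.07 CPM in CTL. The lower one was *Tnni2*, fast troponin I, at 2.32 CPM in NAE1CKO and 4.25 CPM in CTL. *Myod1*, *Pax7*, *Tnnc2* and *Myh4*, among the defining genes of skeletal muscle and its precursors, were at 0 counts in all 8 libraries. The sums of ventricular, atrial, smooth muscle and macrophage markers given above also differed with genotype, and the part of these marker lists, skeletal muscle included, in the values of the 3 genes was not tested.

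The MuRF proteins act in a network of muscle substrates, and its transcripts are described by lists chosen with earlier results known. Of 20 reported substrates, 5 were higher in NAE1CKO, 8 lower and 7 did not pass, with a median log2 fold change of -0.10. For comparison, 18.6% of all genes tested were higher and 17.6% lower. *Flnc*, filamin C, was higher by 0.89 (SE 0.0658, adjusted p = 1.55e-06, edgeR), and so was *Neb*, nebulin, by 1.09 (adjusted p = 4.22e-05). *Tnni3*, cardiac troponin I, which MuRF1 ubiquitinates, fell by 0.64 (adjusted p = 2.19e-05, edgeR) and *Ckm*, muscle creatine kinase, fell by 0.78 (adjusted p = 3.34e-05). *Tnnt2*, cardiac troponin T, was at -0.11 (adjusted p = 0.240, edgeR) and *Myh7*, the slow myosin heavy chain, at 1.37 (SE 0.50, adjusted p = 0.0757), neither past the test. *Myh7* was at 5448, 5359, 3430 and 6218 CPM in NAE1CKO and at 3084, 2954, 979 and 883 CPM in CTL, so that the WT-443 libraries were above the WT-453 libraries. With the title number as a block *Myh7* passed at 1.61 (adjusted p = 0.027, edgeR), as it did in DESeq2 (adjusted p = 0.013) and with no robust estimation (adjusted p = 0.016).

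The titin kinase complex and M-band list had 3 of 13 tested genes higher, 4 lower and 6 that did not pass. Its median was -0.20, and 7 were lower with the title number as a block. Among all genes tested, 18.6% were higher and 17.6% lower. *Ankrd1* and *Ankrd23*, encoding ankyrin repeat proteins that bind titin, were higher by 3.04 (adjusted p = 0.000573) and 2.28 (adjusted p = 2.69e-05, edgeR). *Cmya5*, the M-band associated myospryn, fell by 0.89 (adjusted p = 3.49e-05, edgeR) and *Nbr1*, a ubiquitin-binding autophagy receptor of the titin kinase, fell by 0.35 (adjusted p = 0.00196). *Ttn*, titin itself, was at -0.35 (adjusted p = 0.102, edgeR) and *Myom1*, the main M-band crosslinker, at 0.05 (adjusted p = 0.476). *Ttn* passed in DESeq2 (adjusted p = 0.0319), with the title number as a block (adjusted p = 0.0365, edgeR) and without WT-443-8 (adjusted p = 0.0376).

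The list of microtubule partners of MuRF3 holds tubulin and microtubule-associated genes together with *Des*. Of its 19 genes 14 were higher, 2 lower and 3 not past the test, against 18.6% higher and 17.6% lower of all genes tested. The median log2 fold change was 0.45 against -0.0008 over all genes tested. *Tuba1a*, an alpha-tubulin gene, averaged 260 ± 22.2 CPM in NAE1CKO and 88.1 ± 4.43 CPM in CTL (log2 fold change 1.56, adjusted p = 4.66e-08, edgeR). *Des*, which encodes the intermediate filament protein desmin and is also among the smooth muscle markers, was 1 of the 14, higher by 0.38 (adjusted p = 0.00194, edgeR). The beta-tubulin genes *Tubb2a*, *Tubb2b* and *Tubb5* were higher by 1.59 (adjusted p = 4.00e-07), 1.36 (adjusted p = 1.62e-07) and 0.80 (adjusted p = 1.66e-05, edgeR). *Tuba4a* was at -0.10 (adjusted p = 0.648, edgeR) and *Vash1*, a tubulin detyrosinating enzyme, at 0.16 (adjusted p = 0.376). The 2 lower genes were *Tuba8*, at -1.18 (adjusted p = 0.0440), and *Tubb4a*, at -0.48 (adjusted p = 0.0439, edgeR), named after their values were seen, and the count of lower genes was 0 to 2 over the alternatives, with 0 without KO-443-5, WT-453-3 or WT-453-5 and 1 without KO-443-3, KO-453-6, KO-453-7 or WT-443-8.

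Genes that control MuRF transcription were higher in 2 of 19, lower in 11 and not past the test in 6, with a median of -0.18. The shares of all genes tested were 18.6% higher and 17.6% lower. The count of lower genes was 5 with scaling by library size alone and 7 without WT-443-7, and that of higher genes was 1 without KO-443-3, KO-443-5, WT-453-3 or WT-453-5. *Mef2d* and *Mef2a*, muscle transcription factors of the MEF2 family, fell by 0.34 (adjusted p = 0.000525) and 0.29 (adjusted p = 0.000752, edgeR), and *Tfeb*, a lysosomal regulator that activates *Trim63*, fell by 0.34 (adjusted p = 0.00705). *Prkaa2*, a catalytic subunit of AMP-activated kinase, was higher by 0.31 (adjusted p = 0.000632, edgeR). *Akt1*, at -0.04 (adjusted p = 0.695), and *Mtor*, at -0.18 (adjusted p = 0.0801, edgeR), did not pass. *Mtor* passed with the title number as a block (adjusted p = 0.0458) and without WT-443-8 (adjusted p = 0.0348, edgeR), and *Tfeb* did not pass with scaling by library size alone (adjusted p = 0.0638, edgeR).

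The FOXO and atrophy program had 7 of 20 tested genes higher, 4 lower and 9 not past the test, with a median of 0.08. Beside it stand 18.6% higher and 17.6% lower of all genes tested. *Cebpd*, a C/EBP transcription factor, was higher by 1.06 (adjusted p = 0.000874) and *Gabarapl1*, an autophagosome gene, by 0.69 (adjusted p = 3.47e-05, edgeR). *Map1lc3b*, encoding LC3B, fell by 0.48 (adjusted p = 0.000635, edgeR) and *Fbxo31* by 0.83 (adjusted p = 0.00564). *Fbxo32* encodes atrogin-1, the ligase usually read together with MuRF1. It averaged 75.6 ± 10.95 CPM in NAE1CKO and 101 ± 10.2 CPM in CTL and fell by 0.42 (adjusted p = 0.00796, edgeR). Its groups overlapped, with KO-443-5 at 90.5 CPM and WT-443-8 at 89.4 CPM. The log2 fold change of *Trim63* was -0.44. *Eif4ebp1* was at 0.11 (adjusted p = 0.253, edgeR).

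Of 17 other muscle ubiquitin ligases 3 were higher, 3 lower and 11 did not pass, with a median of -0.01. These counts are near the shares of all genes tested, 18.6% higher and 17.6% lower. *Mul1*, a mitochondrial ligase, fell by 0.39 (adjusted p = 0.000157) and *Neurl2* by 0.52 (adjusted p = 0.00236, edgeR), while *Fbxo40* was higher by 0.30 (adjusted p = 0.0275). The count of higher genes was 0 to 5 over the alternatives, with 0 without KO-453-6 and 1 without WT-443-7 or WT-443-8. *Fbxo40* did not pass without any 1 of these 3 libraries or with upper-quartile scaling (adjusted p = 0.051 to 0.0739, edgeR). *Nedd4* and *Asb2* were both at -0.04 (adjusted p = 0.575 and 0.630, edgeR). Among 14 E2 enzymes and other partners of MuRF1, 2 were higher, 0 lower and 12 did not pass, and the count of higher genes was 5 with scaling by library size alone. *Ube2j1* was higher by 0.30 (adjusted p = 0.00205) and *Ube2g1* by 0.22 (adjusted p = 0.0144, edgeR), with *Ube2d3* at 0.09 (adjusted p = 0.208) and *Usp13* at -0.10 (adjusted p = 0.173, edgeR).

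**Figure D3:**
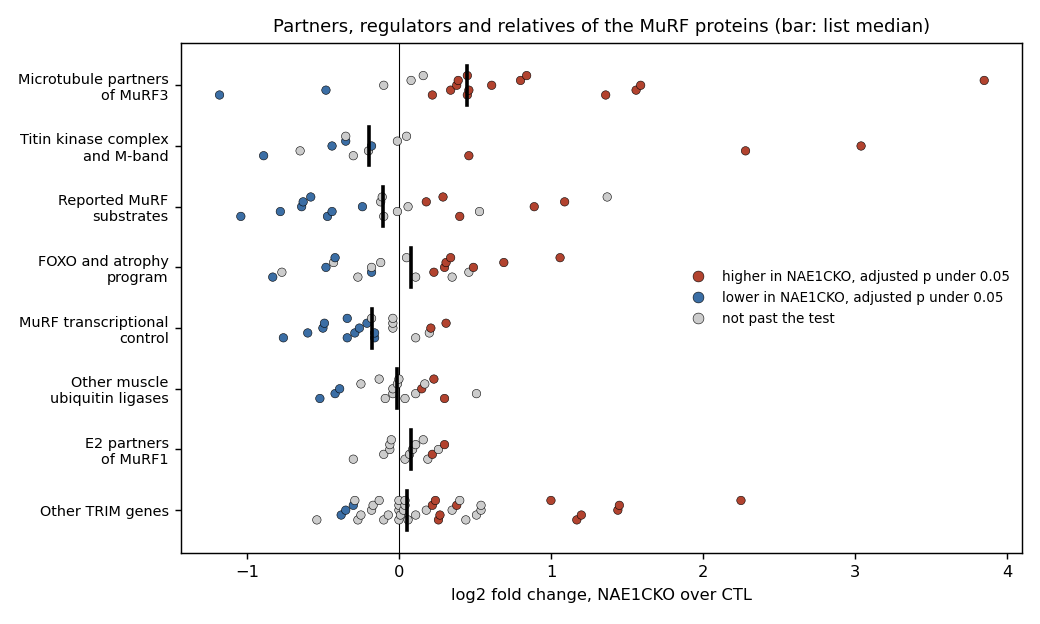
Log2 fold change, NAE1CKO over CTL, of each gene in the 8 lists, with red and blue points past the edgeR test, grey points not past it, and the black bar at the list median. The microtubule list sits to the right, with a median of 0.45, and the other medians lie between -0.20 and 0.08.

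Within the TRIM family, 64 other genes have a symbol made of Trim and a number, 40 of which passed the count filter. Of these 11 were higher in NAE1CKO, 3 lower and 26 did not pass, beside 18.6% higher and 17.6% lower of all genes tested. The median log2 fold change was 0.05 and the range -0.54 to 2.25. *Trim54* at 3.36 lay above all 40, by the value it was chosen with. *Trim9*, a neuronal ligase, was higher by 2.25 (adjusted p = 1.14e-05), *Trim16* by 1.44 (adjusted p = 0.000335), *Trim47* by 1.17 (adjusted p = 2.44e-06) and *Trim27* by 0.38 (adjusted p = 0.000892, edgeR). *Trim28*, the co-repressor KAP1, was at 0.04 (adjusted p = 0.553) and *Trim8* at -0.18 (adjusted p = 0.0831, edgeR), which passed with upper-quartile scaling (adjusted p = 0.0441) and with the title number as a block (adjusted p = 0.0351). The count of lower genes was 0 with scaling by library size alone.

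**Figure D4:**
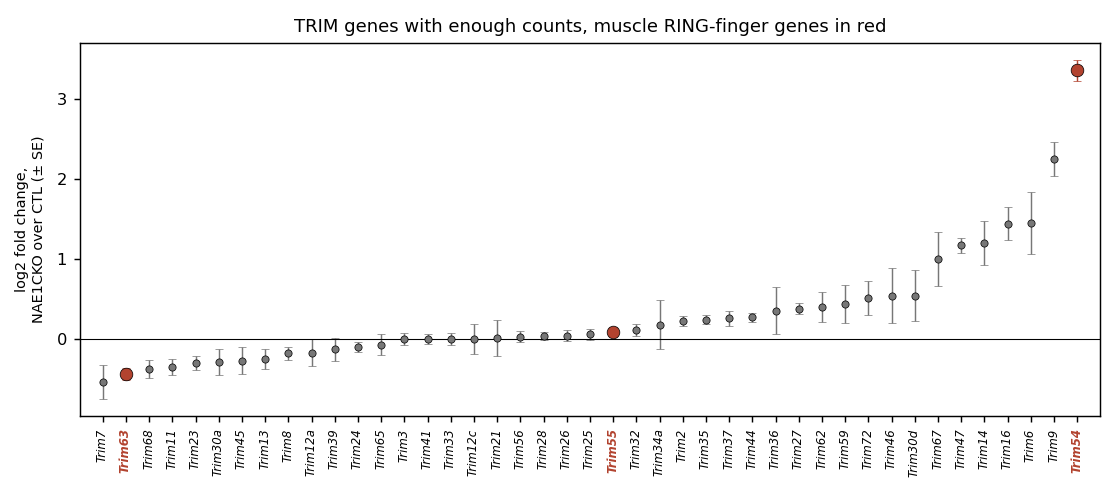
Log2 fold change, NAE1CKO over CTL, with its SE for *Trim54*, *Trim55*, *Trim63* and the 40 other TRIM genes that passed the count filter, in order of size. *Trim54* at 3.36 was the highest, *Trim55* at 0.09 lay in the middle and *Trim63* at -0.44 was 1 place above the lowest, *Trim7*. These 3 genes were chosen by their fold change and counts.

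The genes whose pattern over the 8 libraries was most like that of each ligase gene are given by Pearson r of log2 CPM, as a description, since the points share genotype and scaling. For *Trim54* these were *AW551984* (r = 0.9988), *Nqo1* (0.9982), which encodes a quinone reductase, *Scube2* (0.9981), *Adam9* (0.9978), a membrane metalloprotease, and *Gsta2* (0.9977), a glutathione transferase with 0 CPM in CTL and 12.7 CPM in NAE1CKO. A total of 643 genes reached r above 0.95 with *Trim54*, so these 5 are not far from many others. For *Trim63* the closest were *Slc44a3* (0.994), *Sertm1* (0.986), *Coq7* (0.985) and *Chrac1* (0.985), with 114 genes above 0.95. *Slc44a3* had 9 to 20 counts a library in NAE1CKO and 16 to 32 in CTL. *Sertm1* had 16 to 30 in NAE1CKO and 24 to 41 in CTL, so that r rests on few reads for both. For *Trim55*, which did not follow genotype, they were *Rpl22* (0.981), *Ythdf2* (0.971), *Ifnar1* (0.958), *Zfand5* (0.948) and *1110008L16Rik* (0.937), and 3 genes were above 0.95. Between the ligase genes r was -0.91 for *Trim54* and *Trim63* (-0.44 within the groups), 0.57 for *Trim54* and *Trim55* (0.54 within) and -0.41 for *Trim55* and *Trim63* (0.15 within).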

How the data were processed

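Polyadenylated RNA of ventricles from 4 NAE1CKO and 4 CTL mice was sequenced, and groups were taken from the genotype in the titles. The deposited values are raw counts for each Ensembl gene. Tools listed in the submitters' processing notes are STAR 2.0.4b, Subread with featureCounts 1.4.5, and bcl2fastq, with build, annotation and strand setting not given in the sources used here. In all, 41264 lines hold 40690 genes, and 574 lines that repeat a gene with the same counts were dropped. Counts were analysed in R 4.3.3 with edgeR 4.0.16 (filterByExpr with a minimum count of 10, TMM, robust quasi-likelihood test, Benjamini-Hochberg adjustment over 13622 genes, threshold 0.05). The SE of a log2 value in edgeR was taken as its size divided by the square root of the F statistic of the test. CPM are TMM-scaled, and r used log2 CPM with a prior count of 2. Replicates differed beyond sampling noise, and each library was kept as 1 sample. The p-values set a difference against the variation between these libraries, which the fit moderates over all genes. GENCODE M21 gave positions and lengths, and mafft 7.526 aligned coding sequences. Of the count table, 40254 genes were in GENCODE M21.

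The members and gene lists were chosen with earlier results of these data known. Named genes are the 3 members, *Nae1*, up to 4 genes of each list with the smallest adjusted p that pass and up to 2 with the highest CPM that do not, the 5 genes most like each member, and neighbouring genes; 2 genes under this rule are not reported here. Alternatives were RLE, upper-quartile and library-size scaling, DESeq2 1.42.0, limma-voom (limma 3.58.1), no filter, protein-coding genes alone, at least 1 CPM in 4 libraries, no *Gm42418*, no robust estimation, the title number as a block, each number alone, other lengths, stricter thresholds, Spearman rho, and leaving out each library.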

Additional observations from a re-analysis of the deposited data

Results flagged for a closer look

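In 7 of 108 sets of 4 libraries the gap between the value farthest out and its nearest neighbour, as a share of the range, was above the critical value of Dixon's test for 4 values, and chance gives this in about 1 in 20 sets. *Trim54* in CTL had its gap at 0.901 of the range, with WT-443-8 at 7.38 CPM and the other 3 at 5.60 to 5.78 CPM. KO-453-7 stood apart for *Tubb5* (0.937 of the range, 1127 CPM against 1431 to 1451 CPM in the other 3) and for *Neb* (0.872, 23.7 CPM against 17.0 to 17.8 CPM). KO-453-6 stood apart for *Mef2d* (0.923, 268.9 CPM against 292 to 293 CPM) and for *Map1lc3b* (0.852, 57.2 CPM against 67.8 to 69.7 CPM). WT-443-8 also stood apart for *Ankrd1* (0.849, 530.3 CPM against 212 to 260 CPM) and for *Ube2g1* (0.899, 52.9 CPM against 45.2 to 46.0 CPM).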

How the results depend on the processing

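Over 21 alternatives the log2 fold change, NAE1CKO over CTL, ran between 3.06 and 3.63 for *Trim54*, 0.02 and 0.17 for *Trim55*, and -0.56 and -0.33 for *Trim63*, so no direction changed. Its ends for *Trim54* were 3.06 in the KO-443 and WT-443 libraries alone and 3.63 in the KO-453 and WT-453 libraries alone. Genes lower in NAE1CKO were 2401 as reported and 1532 with scaling by library size alone, where 3177 were higher and the median of all genes was 0.08. Genes called for the title number, 144 as reported, were 296 with DESeq2, 994 with no filter, 78 with no robust estimation and 12 to 1528 when a library was left out, the lowest without WT-453-3 and the highest without KO-453-7. Interaction calls, 0 as reported, were 41 with DESeq2, 288 with no filter and 0 to 1110 when a library was left out, the highest without KO-453-6. The *Trim54* interaction was 0.35 to 0.75 when a library was left out, the lowest without WT-443-8, and the difference for the title number 0.15 to 0.32 for *Trim54*, -0.12 to -0.03 for *Trim55* and -0.19 to -0.07 for *Trim63*. The causes were not tested.

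Shares of the summed level move with the length by construction. With coding length *Trim54*, *Trim55* and *Trim63* took 14.5%, 34.9% and 50.6% in NAE1CKO and 1.37%, 31.8% and 66.8% in CTL. With the longest transcript they took 18.0%, 35.6% and 46.4% in NAE1CKO and 1.78%, 34.0% and 64.2% in CTL. Of 257 values of the main results over the alternatives, 223 held, 33 moved and 1 was stronger. The stronger value was the *Trim54* interaction without KO-453-6, given above by its size only. Of 358 further values, list counts and the median of all genes among them, 303 held and 55 moved.

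The title number, shared by 2 libraries of each genotype, was tried as a block and gave 3.34, 0.10 and -0.44 for *Trim54*, *Trim55* and *Trim63*, 2794 genes higher and 2713 lower. Deviations from the group means were correlated between libraries of different genotype. With the same title number r was -0.066 to 0.301, and with another -0.222 to 0.128. These ranges overlap, though most values were positive with the same number and negative with another. Deviations from a group mean cancel within the group, so opposite signs between these sets are in part fixed by construction. Whether the number marks a pairing was not tested. The antisense overlap of *Trim54*, 4 libraries a group and unknown strand limit these values.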
